A study of Mus musculus with 10 samples.

Results

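The nucleic acid sensors and adaptors described here are 10 of the 54532 genes in the deposited table, found by exact gene name: Ddx58, Ifih1, Dhx58, Mavs, Tlr3, Tlr7, Tlr9, Myd88, Eif2ak2 and Tbk1. They share roles in starting the interferon response, and they and the lists below were chosen with earlier results of these data known. RNA from whole kidneys of mice with unilateral ureteral obstruction (UUO), in which the left ureter is tied off, was sequenced in bulk, with 1 library per mouse. The question was what changes in the obstructed kidney when succinate dehydrogenase is inhibited with dimethyl malonate (DMM), a compound that releases the competitive inhibitor malonate in cells. All mice were male C57BL/6 animals of genotype WT, operated at 8 weeks of age and killed 14 days later. The 5 control mice received PBS, and the 5 DMM-treated mice received 40 mg/kg DMM by intraperitoneal injection every other day. No kidney without obstruction was sequenced, so all values compare obstructed kidneys with each other.

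Cells detect viral RNA, and their own RNA or DNA when it is misplaced or altered, with receptors in the cytosol and in endosomes. The cytosolic RNA helicases pass the signal to an adaptor on the mitochondrial outer membrane, and the endosomal Toll-like receptors pass it to cytoplasmic adaptors; both routes reach kinases that switch on interferon genes. Many of the sensors are themselves induced by interferon, and in the kidney they are found in tubular cells as well as in resident and infiltrating immune cells.

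Total counts ran from 16457495 to 18078777 in the PBS libraries and from 15722527 to 19475833 in the DMM libraries. All 10 genes were well covered: the lowest count of any of them in any library was 65, for Dhx58 in DMM replicate 4, and all 10 passed the filter on low counts. Values below are CPM (read counts scaled to library size), scaled between libraries by TMM, unless another scale is named.

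A few libraries stood apart before any of these genes was tested. The share of counts on the mitochondrial genome was 2.14%, 2.30%, 3.66%, 1.97% and 2.004% in PBS replicates 1 to 5 and 2.30%, 3.79%, 4.03%, 5.62% and 4.39% in DMM replicates 1 to 5. The share in the 10 genes with the most counts was 4.78% to 6.36% with PBS, 5.23% in DMM replicate 1 and 7.19% to 7.89% in DMM replicates 2 to 5. In both measures DMM replicate 1 was within the PBS range and DMM replicates 2 to 5 were above it, and the part of these shares in the results was not tested. The group means that the authors deposited were solved for the part of each library, from 28001 genes. This gave a weight of 0 to PBS replicate 3 and to DMM replicate 1. The 10 genes are therefore given over all 10 libraries and over the 8 libraries without those 2. For the lists below, single genes are given over the 8 libraries, and calls of each list tested over both. The study's methods compare 5 with 5 mice, and no reason for leaving out a library is given in the sources used here. DMM replicate 1 lay inside the range of the 5 PBS libraries for 10 of the 10 sensor and adaptor genes, against 72.7% of all 16505 genes tested, so the calls over 8 libraries depend on leaving it out. The same count was 1 for DMM replicate 2, against 58.6% of all genes tested, 0 for DMM replicate 3, against 45.8%, 3 for DMM replicate 4, against 22.2%, and 0 for DMM replicate 5, against 46.1%. PBS replicate 3 lay inside the range of the other 4 PBS libraries for 5 of the 10 genes, against 43.6% of all genes tested. DMM replicate 4 had the most reads and the fewest genes with a count, 20029 against 22898 to 24083 in the other libraries, and its counts depended on base composition. Relative to the mean of all 10 libraries, its log2 CPM fell by 0.68 for each 10% of GC content. The same slope was between 0.02 and 0.11 in the other 9.

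A gene was called when edgeR's quasi-likelihood test gave a Benjamini-Hochberg adjusted p under 0.05 over all genes tested and the fold change was above 1.5. Over 10 libraries edgeR called 0 of the 10 genes lower in DMM kidneys, and the background was 0% of all 16505 genes tested. By the unadjusted p of edgeR, under 0.05 with the same fold change, 6 of the 10 were lower (Ddx58, Ifih1, Dhx58, Tlr3, Tlr9 and Eif2ak2) and 0 higher, against 4.11% lower among all genes tested. DESeq2 also called 0 of them over 10 libraries. Over 8 libraries edgeR called 5 of the 10 lower (Ddx58, Ifih1, Dhx58, Tlr9 and Myd88), against 3.56% of the 16550 genes tested, and 0 of the 10 higher, against 2.73%. For 6 of the 10, the 5 called and Eif2ak2, every DMM library of the 8 was below every PBS library, against 10.7% of all genes tested; over 10 libraries this held for 0 of the 10, against 1.16%. In both comparisons 9 of the 10 fold changes were below 0, and the exception was Mavs. The median log2 fold change of the 10 genes was −0.76 over 10 libraries and −1.12 over 8, where that of all genes tested was 0.02 in each. The 8 libraries are part of the 10, so neither comparison is an independent check of the other.

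**Figure D1:**
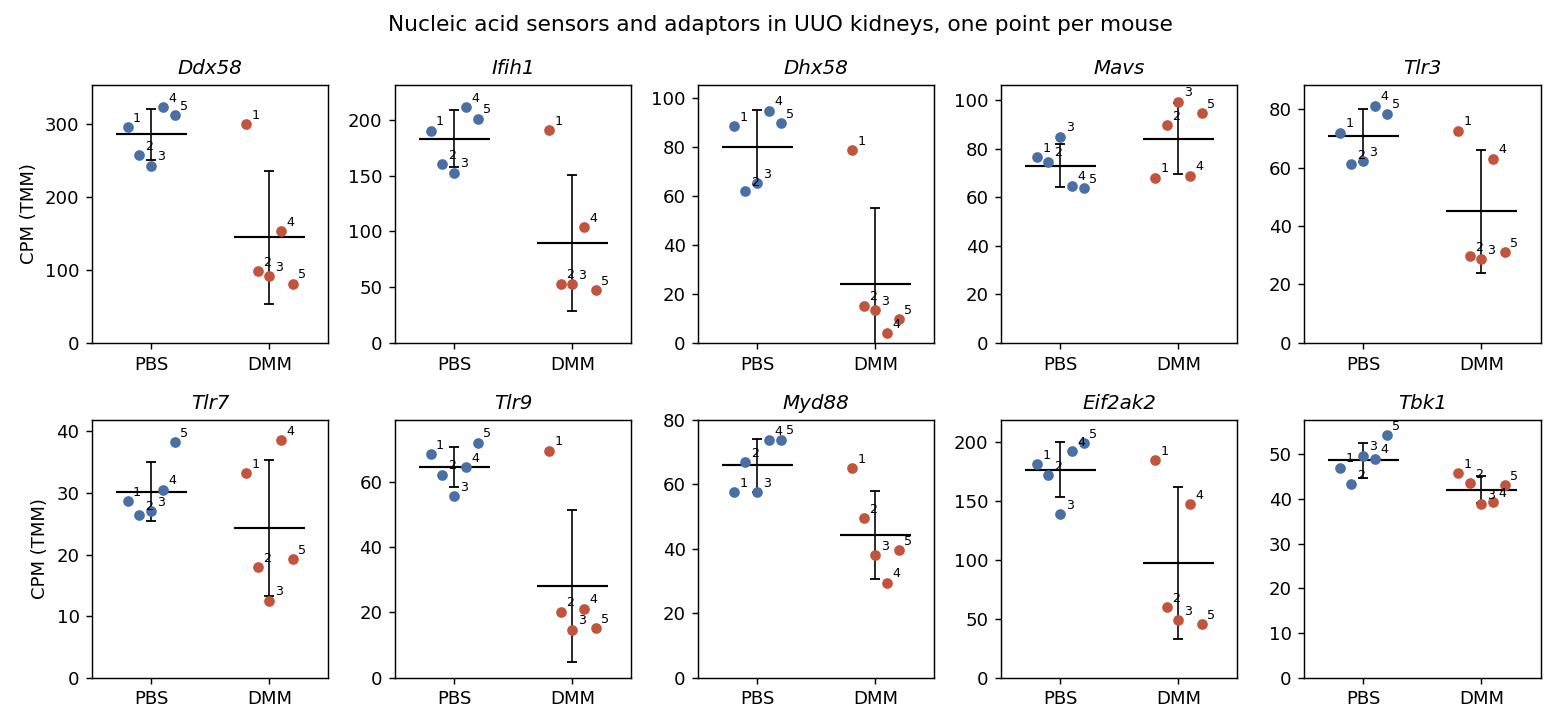
CPM of each of the 10 genes in the 5 PBS and 5 DMM libraries, 1 point per mouse with its replicate number; lines and bars are the mean and SD of all 5. DMM replicate 1 sits among the PBS points in all 10 panels, and DMM replicate 4 sits at 63.1 CPM for Tlr3 and 38.6 CPM for Tlr7, among or above the PBS points.

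Ddx58 encodes RIG-I, the helicase that binds short double-stranded RNA with a triphosphate end (ENSMUSG00000040296, chr4:40203773-40239828, minus strand, mm10). Its CPM in PBS replicates 1 to 5 was 295, 257, 243, 323 and 312, and in DMM replicates 1 to 5 it was 299.9, 98.4, 91.0, 153 and 80.9. DMM replicates 2 to 5 were all below the lowest PBS library, and DMM replicate 1 was within the PBS values. Over the 8 libraries the mean was 297 ± 28.8 (SD, n = 4) with PBS and 106 ± 32.2 (SD, n = 4) with DMM. The fitted log2 fold change was −1.49 (SE 0.20), with an adjusted p of 0.00447 by edgeR's quasi-likelihood test. With all 10 libraries it was −0.98 (SE 0.33, edgeR's quasi-likelihood test, adjusted p 0.385). In RNA from a whole kidney, fewer cells of a type that expresses a gene and less of its RNA per cell cannot be told apart.

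Ifih1 encodes MDA5, the related helicase that assembles along long double-stranded RNA (ENSMUSG00000026896, chr2:62595798-62646255, minus strand). PBS replicates 1 to 5 had 190.3, 160.5, 152.5, 211 and 201 CPM, and DMM replicates 1 to 5 had 191, 53.2, 52.5, 104 and 47.4 CPM. The order of the libraries was much as for Ddx58: DMM replicate 1 lay among the PBS values, DMM replicate 4 was the highest of the remaining DMM libraries, and replicates 2, 3 and 5 were close together. Over 8 libraries its log2 fold change was −1.57 (SE 0.25), with an adjusted p of 0.00932 by edgeR's quasi-likelihood test. Over 10 libraries it was −1.03 (SE 0.36, edgeR's quasi-likelihood test, adjusted p 0.387).

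Dhx58 encodes LGP2, which binds RNA but lacks the signalling domains of the other RIG-I-like receptors and tunes their activity (ENSMUSG00000017830, chr11:100694884-100704271, minus strand). Its CPM was 88.4, 61.9, 65.3, 94.7 and 89.7 in PBS replicates 1 to 5 and 78.6, 15.3, 13.4, 3.93 and 9.73 in DMM replicates 1 to 5. DMM replicates 2 to 5 were all far below the PBS libraries, and here DMM replicate 4 was the lowest of them. Means over the 8 libraries were 83.7 ± 14.8 (SD, n = 4) with PBS and 10.6 ± 4.99 (SD, n = 4) with DMM. Its log2 fold change of −2.98 (SE 0.37) was the largest of the 10 genes over 8 libraries, with an adjusted p of 0.00287 by edgeR's quasi-likelihood test. It was −2.71 without DMM replicate 4 and −1.73 over 10 libraries (SE 0.64, edgeR's quasi-likelihood test, adjusted p 0.394).

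The make-up of the RIG-I-like receptors can be read per length from the deposited FPKM (fragments scaled by gene length and library size). Summed over the 3 receptors, FPKM was 91.4, 74.4, 72.4, 100.04 and 95.7 in PBS replicates 1 to 5 and 89.6, 25.0, 23.3, 35.2 and 20.2 in DMM replicates 1 to 5. The share of Dhx58 in this sum was between 25.2% and 29.3% in the PBS libraries. In DMM replicates 1 to 5 it was 26.7%, 18.5%, 17.4%, 3.37% and 14.7%. DMM replicates 2 to 5 were thus below every PBS library in share as well as in sum. The share of Ddx58 was higher in each of them, between 55.1% and 60.9% against 45.4% to 48.6% with PBS. These shares were not corrected for GC content, on which the counts of DMM replicate 4 depended.

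Mavs encodes the mitochondrial adaptor to which RIG-I and MDA5 bind (ENSMUSG00000037523, chr2:131234063-131248025, plus strand). It was the exception in direction. PBS replicates 1 to 5 had 76.7, 74.8, 85.0, 64.8 and 63.7 CPM, and DMM replicates 1 to 5 had 68.2, 89.7, 99.5, 68.9 and 94.8 CPM. DMM replicates 2, 3 and 5 were above every PBS library, but DMM replicates 1 and 4 lay within the PBS range, so the groups overlapped with and without DMM replicate 1. The log2 fold change was 0.33 over 8 libraries (SE 0.14, edgeR's quasi-likelihood test, adjusted p 0.205) and 0.21 over 10 (SE 0.14, edgeR's quasi-likelihood test, adjusted p 0.568). Without DMM replicate 4 in the 8 libraries it was 0.44, with an adjusted p of 0.00464 by edgeR's quasi-likelihood test, and still under the fold change of 1.5.

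Tbk1 encodes the kinase downstream of Mavs and of Toll-like receptor adaptors that phosphorylates IRF3 (ENSMUSG00000020115, chr10:121546455-121586787, minus strand). Its values were the most even of the 10 genes. The PBS libraries had 47.0, 43.2, 49.6, 48.9 and 54.2 CPM, and the DMM libraries had 45.7, 43.5, 38.8, 39.3 and 43.0 CPM, each in the order of replicates 1 to 5. DMM replicates 3, 4 and 5 were below every PBS library, DMM replicate 2 was just above PBS replicate 2, and the groups overlapped. Its log2 fold change was −0.23 over 8 libraries (SE 0.11, edgeR's quasi-likelihood test, adjusted p 0.261) and −0.21 over 10 (SE 0.09, edgeR's quasi-likelihood test, adjusted p 0.456).

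**Figure D2:**
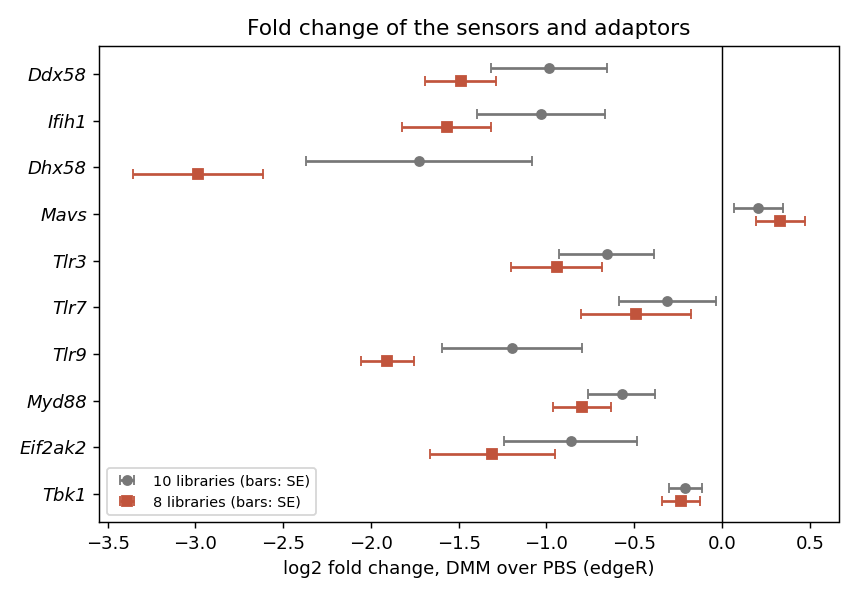
Log2 fold change, DMM over PBS, of the 10 genes over 10 libraries (circles) and over 8 libraries (squares), with bars of 1 SE. Dhx58 is lowest in both, at −1.73 and −2.98, and Mavs alone is above 0, at 0.21 and 0.33.

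Tlr9 encodes the endosomal receptor for DNA with unmethylated CpG (ENSMUSG00000045322, chr9:106222598-106226883, plus strand). Its CPM was 68.3, 62.1, 55.5, 64.4 and 71.8 in PBS replicates 1 to 5 and 69.4, 20.2, 14.7, 21.1 and 15.1 in DMM replicates 1 to 5. DMM replicates 2 to 5 were close to one another and far below the PBS libraries, and DMM replicate 1 was among the highest PBS values. Means over the 8 libraries were 66.7 ± 4.30 (SD, n = 4) with PBS and 17.8 ± 3.36 (SD, n = 4) with DMM. The log2 fold change was −1.91 (SE 0.15), with an adjusted p of 0.000191 by edgeR's quasi-likelihood test, the smallest of the 10 genes. Over 10 libraries it was −1.20 (SE 0.40, edgeR's quasi-likelihood test, adjusted p 0.385).

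Tlr3 encodes the endosomal receptor for double-stranded RNA (ENSMUSG00000031639, chr8:45395665-45411080, minus strand). PBS replicates 1 to 5 had 71.9, 61.0, 62.1, 81.2 and 78.4 CPM, and DMM replicates 1 to 5 had 72.5, 29.8, 28.7, 63.1 and 30.9 CPM. DMM replicates 2, 3 and 5 were below every PBS library, and DMM replicates 1 and 4 were within the PBS range. On the log2 scale the fold change over 8 libraries was −0.94 (SE 0.26, edgeR's quasi-likelihood test, adjusted p 0.0645), so Tlr3 was not called, and over 10 it was −0.66 (SE 0.27, edgeR's quasi-likelihood test, adjusted p 0.429).

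Tlr7 encodes the endosomal receptor for single-stranded RNA and lies on the X chromosome (ENSMUSG00000044583, chrX:167304929-167330558, minus strand). It had 28.7, 26.4, 27.0, 30.5 and 38.2 CPM in PBS replicates 1 to 5 and 33.2, 18.0, 12.5, 38.6 and 19.3 CPM in DMM replicates 1 to 5. The same 3 DMM libraries, replicates 2, 3 and 5, were below every PBS library, but DMM replicate 4 was the highest of all 10 libraries. The log2 fold change was −0.49 over 8 libraries (SE 0.32, edgeR's quasi-likelihood test, adjusted p 0.417) and −0.31 over 10 (SE 0.28, edgeR's quasi-likelihood test, adjusted p 0.656).

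Myd88 encodes the adaptor of Tlr7, Tlr9 and most surface Toll-like receptors (ENSMUSG00000032508, chr9:119335934-119341411, minus strand). Its CPM was 57.5, 66.9, 57.5, 73.7 and 73.9 in PBS replicates 1 to 5 and 65.1, 49.5, 38.1, 29.5 and 39.5 in DMM replicates 1 to 5. DMM replicates 2 to 5 were below every PBS library, by a narrower gap than for the receptors called lower. The log2 fold change over 8 libraries was −0.80 (SE 0.17), with an adjusted p of 0.0247 by edgeR's quasi-likelihood test. This call was lost when any of 5 libraries was left out of the 8: the adjusted p of edgeR's quasi-likelihood test was 0.0715 without PBS replicate 2, 0.0862 without PBS replicate 4, 0.0919 without PBS replicate 5, 0.0781 without DMM replicate 3 and 0.0737 without DMM replicate 5. Over 10 libraries the log2 fold change was −0.57 (SE 0.19, edgeR's quasi-likelihood test, adjusted p 0.385).

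Eif2ak2 encodes PKR, a kinase that binds double-stranded RNA and stops translation through eIF2α (ENSMUSG00000024079, chr17:78852564-78882573, minus strand). PBS replicates 1 to 5 had 181, 172, 139, 192 and 199 CPM, and DMM replicates 1 to 5 had 185, 60.0, 48.6, 147 and 45.4 CPM. DMM replicates 2, 3 and 5 were far below the PBS libraries, while DMM replicate 4 was above PBS replicate 3 and below the other PBS libraries. Over the 8 libraries, which leave out PBS replicate 3, the groups did not overlap. Their means were 186 ± 11.9 (SD, n = 4) with PBS and 75.2 ± 48.2 (SD, n = 4) with DMM, and the gene was not called, with a log2 fold change of −1.31 (SE 0.36, edgeR's quasi-likelihood test, adjusted p 0.0618). Over 10 libraries the log2 fold change was −0.86 (SE 0.38, edgeR's quasi-likelihood test, adjusted p 0.448).

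DMM replicate 4 was above the other low DMM libraries for some genes and below them for others, and base composition is given beside its values. Compared with the mean of DMM replicates 2, 3 and 5, its log2 CPM was higher by 1.08 for Tlr3, 1.22 for Tlr7, 1.03 for Ifih1, 1.52 for Eif2ak2 and 0.76 for Ddx58, whose longest transcripts hold 40.03%, 41.0%, 42.8%, 43.9% and 46.6% GC. For Tbk1, at 45.4% GC, the difference was −0.09. Of the 4 genes with the most GC, Myd88 at 53.5% was at −0.52, Dhx58 at 53.9% at −1.70, Mavs at 53.9% at −0.46, and Tlr9 at 56.2% at 0.34. Apart from Tbk1 and Tlr9, the GC-poor genes were high and the GC-rich genes low in this library.

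With counts corrected for GC content and transcript length, an alternative chosen after seeing the data, the differences of DMM replicate 4 became 0.28 for Tlr3, 0.59 for Tlr7, 0.21 for Ifih1 and 0.49 for Ddx58. For Eif2ak2 the library stayed above the others, at 107 corrected CPM against 47.3 to 62.2. They became 0.07 for Myd88, −1.06 for Dhx58 and 0.05 for Mavs, and moved away from 0 for Tlr9, to 0.93, and for Tbk1, to −0.28. So corrected, the 10 libraries gave 0 genes called in either direction. The 8 libraries gave 8 of the 10 genes called lower, against 4.6% of all genes tested. The added genes were Tlr3 at a log2 fold change of −1.19, Tlr7 at −0.70 and Eif2ak2 at −1.51, with adjusted p of 0.000266, 0.0483 and 0.00459 by edgeR's quasi-likelihood test. The same 8 genes were called when DMM replicate 4 was left out instead, against 7.61% of all genes tested. Tlr3 was then at −1.30, Tlr7 at −0.90 and Eif2ak2 at −1.86, with adjusted p of 6.91e-05, 0.00508 and 1.74e-05 by edgeR's quasi-likelihood test. With DMM replicate 4 kept and no correction, Tlr3 and Eif2ak2 were also called by DESeq2, with library size alone and with no filter on low counts, and Tlr7 was not. Mavs and Tbk1 were the 2 not called in any of these settings.

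**Figure D3:**
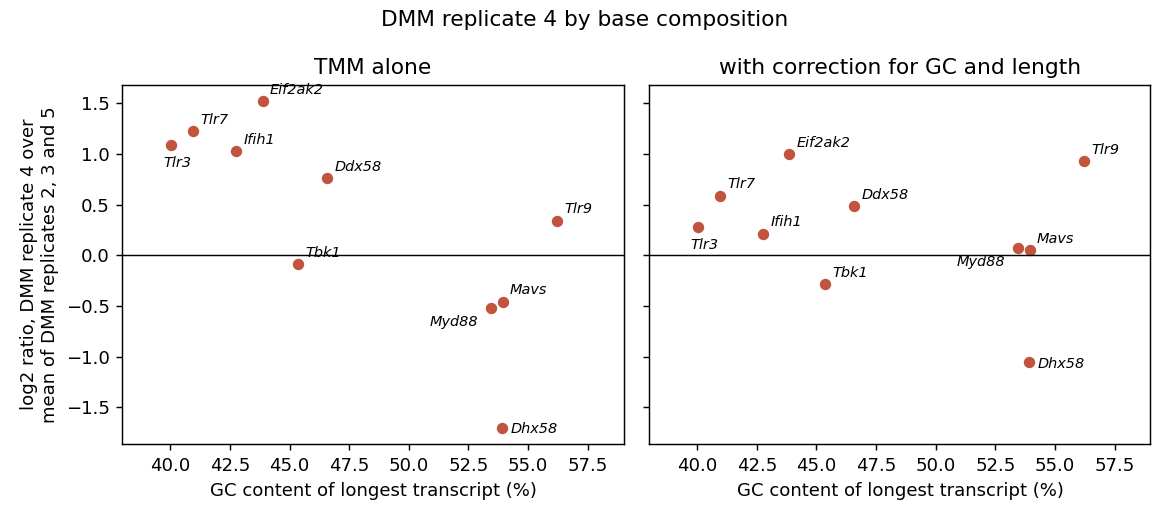
Log2 ratio of CPM in DMM replicate 4 over the mean of DMM replicates 2, 3 and 5, for each of the 10 genes against the GC content of its longest transcript, with TMM scaling alone (left) and after correcting for GC and length (right). On the left Eif2ak2 is highest, at 1.52, and Dhx58 lowest, at −1.70, and on the right both lie closer to 0.

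Levels can be compared between genes on the deposited FPKM. Over the 5 PBS libraries, mean FPKM ran in the order Ddx58 at 40.2, Eif2ak2 at 34.3, Myd88 at 25.4, Dhx58 at 24.3, Ifih1 at 22.3, Mavs at 21.7, Tlr9 at 18.4, Tlr3 at 13.5, Tbk1 at 12.3 and Tlr7 at 7.34. Of neighbours in this order, only Tlr9 and Tlr3, and Tbk1 and Tlr7, had ranges that did not overlap. In DMM replicates 2 to 5 the order was Mavs at 26.2, Myd88 at 15.1, Ddx58 at 14.9, Eif2ak2 at 14.6, Tbk1 at 10.5, Ifih1 at 7.81, Tlr3 at 7.26, Tlr7 at 5.36, Tlr9 at 5.08 and Dhx58 at 3.21. Of neighbours in this second order, only Mavs and Myd88 had ranges that did not overlap. DMM replicate 4 differed from this order of means. There Eif2ak2 at 28.4 and Ddx58 at 21.4 FPKM were above Mavs at 20.4 FPKM, while in DMM replicates 2, 3 and 5 Mavs was the highest of the 10 genes. Dhx58 was lowest in DMM replicates 4 and 5, at 1.19 and 2.96 FPKM, and Tlr7 in DMM replicates 2 and 3, at 4.37 and 3.04 FPKM.

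The other genes of these routes were taken from lists, read against the same shares of all genes tested. Of 24 regulators of the RIG-I-like receptors, edgeR called 6 lower and 0 higher over 8 libraries, and their median log2 fold change was −0.13. The 3 with the smallest p were the helicase gene Ddx60 at −2.76, Trim14 at −1.75 and the transcription factor gene Irf7 at −3.61, with adjusted p of 0.000155, 0.000363 and 0.00119 by edgeR's quasi-likelihood test. Trim25, whose product ubiquitinates RIG-I, was called at −0.94 and Ikbke, the kinase gene related to Tbk1, at −0.98. The last of the 6 was Rnf135, at −1.38. Irf3 at −0.09 and Traf3 at 0.06 were not called, nor were the 2 uncalled regulators with the highest CPM, Ddx3x at 0.27 and Ywhae at −0.02. With all 10 libraries edgeR called 0 of the 24, and 6 were lower by unadjusted p and fold change.

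Of 21 further genes of the endosomal Toll-like receptor pathway, 6 were called lower and 0 higher over 8 libraries, with a median log2 fold change of −0.24. Those with the smallest p were the protease gene Ctss at −1.34, the exonuclease gene Pld4 at −1.04 and the transcription factor gene Irf5 at −1.06, with adjusted p of 0.00192, 0.00292 and 0.0152 by edgeR's quasi-likelihood test. Unc93b1, whose product carries Tlr3, Tlr7 and Tlr9 to endosomes, was called at −1.08. Not called were Ticam1 at 0.16, the adaptor gene of Tlr3, the RNA receptor genes Tlr8 at −0.34 and Tlr13 at −0.25, and the abundant Lgmn at 0.22 and Hsp90b1 at 0.16. Tlr8 and Tlr13 resembled Tlr7 in DMM replicate 4, which had their highest CPM of the 10 libraries, 26.3 and 46.0. None of the 21 was called by edgeR over 10 libraries, and 5 were lower by unadjusted p and fold change.

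Surface Toll-like receptors and their partners, 13 genes, had 3 called lower and 0 higher over 8 libraries: Ly86 at −0.94, Cd180 at −1.27 and Tlr1 at −1.02. Their median was −0.55, and Tlr2 at −0.57, Tlr4 at 0.06 and Cd14 at −0.26 were not called. Of 14 tested genes of cytosolic DNA sensing, 7 were called lower and 0 higher, with a median of −0.49. Ifi204 at −2.49, Zbp1 at −3.09 and Samhd1 at −1.53 had the smallest p, with adjusted p of 7.45e-05, 0.000122 and 0.000448 by edgeR's quasi-likelihood test. The sensor Cgas was called at −1.47, its adaptor Sting1 at −0.66 and the inflammasome sensor Aim2 at −1.20, while the abundant Lrrfip1 at −0.27 and Ddx41 at −0.06 were not called. Trex1 was listed at 0 in all 10 libraries, and whether this reflects absent RNA or the way reads were counted was not tested. Over 10 libraries edgeR called 0 genes of either list, and 4 of the 13 and 6 of the 14 were lower by unadjusted p and fold change.

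Eif2ak2 differed in size of change from the other kinases that act on eIF2α, though the difference itself was not tested. Over 8 libraries the log2 fold change was 0.29 for Eif2ak1, 0.05 for Eif2ak3 and 0.01 for Eif2ak4, and none of them was called. Of 16 genes of double-stranded RNA binding and the eIF2α arm, 1 was called lower and 0 higher, with a median of 0.01. The one called was Adar, which edits double-stranded RNA, at −1.50 with an adjusted p of 0.000161 by edgeR's quasi-likelihood test. Its CPM was 203, 182, 168, 218 and 209 in PBS replicates 1 to 5 and 207, 76.3, 74.5, 73.6 and 62.7 in DMM replicates 1 to 5, so that DMM replicate 4 did not stand out. The abundant Dhx9 at 0.26 and Dnajc3 at 0.40 were not called. With all 10 libraries edgeR called 0 of the 16, and 1 was lower by unadjusted p and fold change.

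A reference list of 16 interferon-induced genes had 16 called lower over 8 libraries, with a median log2 fold change of −3.19. Oasl1 at −3.46 and Ifit2 at −2.82 were among those with the smallest p, with adjusted p of 6.88e-05 and 7.45e-05 by edgeR's quasi-likelihood test. Over 10 libraries edgeR called 0 of the 16, all 16 were lower by unadjusted p and fold change, and the median was −1.80. Summed CPM of the list was 4974, 3249, 3662, 5066 and 4915 in PBS replicates 1 to 5 and 3976, 650.3, 582, 527 and 479 in DMM replicates 1 to 5, with DMM replicate 1 again among the PBS values. Of the 10 sensor and adaptor genes only Dhx58 came near the median of this list.

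The interferon genes themselves were barely detected. Of 10 ligand genes, 8 had no count in any library, Ifnb1 among them, which allows at most 0.159 to 0.189 CPM per library (3 counts, counting error only). Ifng had at most 7 counts in a library and Ifnk at most 5, and 0 of the 10 passed the filter on low counts. Ifng had a count in all 5 PBS libraries, at 0.212 to 0.412 CPM, and in DMM replicates 1, 2 and 3, at 0.309, 0.252 and 0.17 CPM, and none in DMM replicates 4 and 5. Differences in interferon RNA between the groups were not tested.

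Marker genes of cell types known to carry these receptors moved too, and their part in the results was not tested. The marker lists here and below are read against the same shares of all genes tested over 8 libraries, 3.56% lower and 2.73% higher. Over 10 libraries edgeR called 0 genes of any of these lists. By unadjusted p and fold change 6 of 12 macrophage markers were then lower, against 4.11% of all genes tested. Over 8 libraries 3 of the 12 were called lower (Cd68, Fcgr1 and C1qb), with a median log2 fold change of −0.52. Of the 9 not called, C1qa at −1.44, C1qc at −1.24, Adgre1 at −0.65, Csf1r at −0.37, Ccr2 at −0.39 and Itgam at −0.33 were below 0, and Cd163 at 0.90, Mertk at 0.44 and Mrc1 at 0.08 above. The groups did not overlap for the 3 called and for C1qa, C1qc, Adgre1 and Csf1r, lower with DMM, against 10.7% of all genes tested. Nor did they for Mertk, which was higher, a direction for which the share of all genes is not given here. The summed CPM was 1810.1, 1686, 1449, 1756 and 1952 in PBS replicates 1 to 5 and 1594, 1153, 961, 966 and 986 in DMM replicates 1 to 5. DMM replicates 2 to 5 were below every PBS library in this sum. The marker sums here and below were not corrected for GC content, on which the counts of DMM replicate 4 depended. C1qb was the most abundant, and no marker of the list was at 0. Without C1qa, C1qb and C1qc the sum of the other 9 was 831, 841, 731, 882 and 911 with PBS and 783, 657, 541, 841 and 557 with DMM, so that DMM replicates 1 and 4 lay within the PBS range.

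Plasmacytoid dendritic cells and B cells are known for high Tlr7 and Tlr9. Of 9 tested markers of plasmacytoid dendritic cells, 2 were called lower, Bst2 and Irf8, and Irf8 is also in the list of the endosomal pathway. Summed CPM was 1059, 664, 941, 848 and 987 in PBS replicates 1 to 5 and 932, 472, 483, 392 and 555 in DMM replicates 1 to 5, and Bst2 was the most abundant. Without Bst2 the sum of the 8 other tested markers was 439, 394, 533, 344 and 488 with PBS and 566, 394, 419, 378 and 495 with DMM, in the same order, and overlapped between the groups. Without Bst2 and Klk1 it was 226, 238, 204, 253 and 263 with PBS and 245, 184, 151, 270.1 and 178 with DMM, so that DMM replicates 2, 3 and 5 were below every PBS library. Klk1, Tcf4 and Irf8 had mean CPM of 171 ± 61.2, 104 ± 2.27 and 96.0 ± 10.8 (SD, n = 4) with PBS. These genes made up most of the sum without Bst2, and Tcf4 and Irf8 most of the sum without Bst2 and Klk1. How far these sums follow the number of plasmacytoid dendritic cells was not tested. The median log2 fold change of the 9 tested markers was −0.65. The defining markers Siglech, with mean CPM of 2.62 ± 0.308 (SD, n = 4) with PBS and 2.04 ± 2.28 (SD, n = 4) with DMM, and Ccr9, with 1.88 ± 0.622 and 1.095 ± 0.435, were low and not called. Of 6 tested B cell markers 0 were called lower and 1 higher, Cr2. The summed CPM of all 8 listed, with the untested Fcer2a and Blk, was between 7.61 and 13.8 in all 10 libraries.

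Other immune markers were low. Of 10 T and NK cell markers 1 was called lower over 8 libraries, Cd4, and the median log2 fold change of the list was −1.09. Over 10 libraries 4 of them were lower by unadjusted p and fold change, against 4.11% of all genes tested. Their summed CPM was 40.9 to 73.0 with PBS, 47.7 in DMM replicate 1 and 16.3 to 37.1 in DMM replicates 2 to 5. Of 8 markers of conventional dendritic cells 1 was called lower over 8 libraries, Itgax, and the median of the list was −0.76. Over 10 libraries 1 of them was lower by unadjusted p and fold change. Their sums were 129.9 to 159 with PBS, 144 in DMM replicate 1 and 63.4 to 100.1 in the other DMM libraries. Of 6 tested neutrophil markers 0 were called, and the highest sums, 142 and 125, were in PBS replicate 4 and DMM replicate 4.

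Markers of the kidney's own cells moved in both directions. Proximal tubule markers identified the tissue, with Kap the most abundant. Of the 14, 5 were called higher and 0 lower over 8 libraries, with a median log2 fold change of 1.52. Over 10 libraries 0 of the 14 were called, 2 were higher by unadjusted p and fold change, and the median was 0.646. Their summed CPM was 4895, 4891, 12443, 1949.9 and 3759 in PBS replicates 1 to 5 and 3673, 9949, 8769, 6806 and 12568 in DMM replicates 1 to 5. PBS replicate 3 was in the range of DMM replicates 2 to 5, and DMM replicate 1 was in the range of the other PBS libraries. Over 8 libraries 4 of 9 tested markers of the loop, distal tubule and collecting duct were called higher, and 0 of 10 podocyte and endothelial markers. Of 10 fibroblast and myofibroblast markers 3 were called lower (Col1a2, Postn and Lum) and 0 higher, with a median log2 fold change of −0.83. Over 10 libraries 0 of these 10 were called, 0 were lower by unadjusted p and fold change, and the median was −0.478. The part of these markers in the values of the 10 genes was not tested.

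For each of the 10 genes, the genes of most similar pattern were sought among 15426 genes by the root mean square difference of centred log2 CPM over the 10 libraries. Nearest to Ddx58 were Ifi207 at 0.099 and Znfx1 at 0.10, to Ifih1 Dtx3l at 0.080 and Gm43197 at 0.114, and to Dhx58 Oas1g at 0.20 and Oas1b at 0.21. Nearest to Tlr9 were Helz2 at 0.112 and Mndal at 0.116, and to Eif2ak2 9930111J21Rik2 at 0.107 and Trim12c at 0.133. These patterns spread widely across the libraries, with a root mean square of 0.77 for Ddx58 itself and 1.58 for Dhx58. Tlr3 had Mpeg1 at 0.158 and Slfn5 at 0.168, Tlr7 had Slc9a4 at 0.116 and Myocd at 0.149, and Myd88 had Twf2 at 0.076 and Rnf19b at 0.089. Mavs, nearest to Oat at 0.042 and Tom1l2 at 0.048, and Tbk1, nearest to Asah1 at 0.056 and Arpc5 at 0.072, had flatter patterns of their own, at 0.22 and 0.14, so that small distances are easier to reach.

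Since several of the genes moved together, their promoters were searched for the letters GAAANNGAA, the type bound by interferon regulatory factors, and TTCNNNGAA, the type bound by STAT proteins, on both strands. Promoter sequences from RefSeq (GRCm38.p6), from 250 bases before to 50 after each start, were at hand for 8 of the 10 genes; Dhx58 and Tlr7 had no entry. GAAANNGAA was present in 4 of the 8, Ddx58, Eif2ak2, Ifih1 and Myd88, and in 8.56% of all 32851 promoters. TTCNNNGAA was present in 2 of the 8, Eif2ak2 and Myd88, and in 8.3% of all promoters, and in Myd88 its match overlaps that of GAAANNGAA. Mavs, Tbk1, Tlr3 and Tlr9 held neither. The stretches around the GAAANNGAA match nearest to each start are shown for the 4 genes that hold it. These 4 were lower in each of DMM replicates 2, 3 and 5 than in every PBS library, and so were Tlr3 and Tlr9, which hold no match. The stretches are written in the direction of the gene, all on the minus strand, with capitals for matches of GAAANNGAA. They lie at chr4:40239804-40239832, chr17:78882536-78882564, chr2:62646206-62646233 and chr9:119340040-119340068, in the order printed.
Ddx58: ctgaggcagtTTCGATTTCctatggccag
Eif2ak2: agtccgccggGAAAACGAAACAGAAgaga
Ifih1: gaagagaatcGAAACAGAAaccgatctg
Myd88: gagcttctcgGAAAGCGAAagaaggaggg
In Ddx58 the match is on the opposite strand and reads in reverse complement. Eif2ak2 holds 2 overlapping matches, the second of which, GAAACAGAA, has the same letters as the match shown for Ifih1. Ifih1 holds another match, TTCCCTTTC on the opposite strand, further upstream and outside the stretch shown. For Myd88 the RefSeq start lies inside the locus given above from the deposited table, so the stretch shown is within that locus. A match describes these letters only and shows no binding.

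Some of the 10 loci share bases with other genes, and the sources used here do not say whether counting took the strand into account. Myd88 overlaps Acaa1a on the opposite strand, which had 798 to 2138 counts per library, Eif2ak2 overlaps Gm26637 on the opposite strand, with 29 to 82 counts, and Dhx58 overlaps the antisense gene Dhx58os, with 3 to 38 counts. The antisense gene Gm45542 at Tlr3 had 0 counts in every library. How reads in the shared bases of Myd88 and Acaa1a were assigned was not tested.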

How the data were processed

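RNA from 1 obstructed kidney per mouse was sequenced, with 5 PBS and 5 DMM mice. Per gene and library the authors deposited a read count from alignments to mm10; the submitters' processing notes name HISAT2 2.0.5, and the counting tool, annotation release and strand setting are not given in the sources used here. The deposited FPKM values divide counts by gene length and an effective library size and were used for levels only. The gene length deposited by the authors is in base pairs. The authors also deposited mean signal per group, in counts after size factors were divided out, used only to solve the weight of each library, and a DESeq2 comparison with its log2 fold change, p-value and adjusted p-value, used for no result.

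Counts were fitted with edgeR 4.0.16 in R 4.3.3 (filterByExpr, TMM, quasi-likelihood F test with group as the only factor, Benjamini-Hochberg adjustment over all genes tested) over 10 and over 8 libraries, after tests on simulated data. Alternatives were DESeq2 1.42.0, RLE factors, library size alone, no filter, a filter of 1 CPM, a replicate block and leaving out each library, and, chosen after seeing the data, a correction for transcript length and GC (loess in R, per library, on the longest GENCODE transcript). The genes and lists were chosen with earlier results of these data known. Named from each list were up to 3 called genes of smallest p, up to 2 uncalled genes of highest CPM and genes that define the list; Rnf135, the marker genes given by name and the overlapping genes were added after their values were seen. A shorter motif was also searched after seeing the data and left out, as its matches overlap those of GAAANNGAA.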

Additional observations from a re-analysis of the deposited data

Results flagged for a closer look

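Each of the 10 genes was checked in each group of 5 libraries for a library far from the rest, measured as its gap to the nearest other library divided by the range of the group, against a limit of 0.71. Of 20 groups, 2 passed it, where chance gives about 1 in 20. In Dhx58, DMM replicate 1 was above the other DMM libraries with a gap of 0.848 of the range. In Tlr9, DMM replicate 1 was again above the others, with a gap of 0.883 of the range. Both values come from the library that has a weight of 0 in the deposited group means, and both genes are given in the report with and without it. The cause was not tested.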

How the results depend on the processing

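No fold change of the 10 genes reversed under any setting tried. Over 10 libraries edgeR called 0 genes; DESeq2 called 12 higher and 33 lower and the 8 libraries 452 and 590, with 5 of the 10 sensor and adaptor genes lower. Leaving out 1 library at a time gave 0 to 50 genes higher, 0 to 436 lower and 0 to 5 of the 10; the highest of each came without DMM replicate 1. Over 8 libraries DESeq2 called 749 higher and 910.0 lower, with 7 of the 10, and library size alone 276 higher and 700.0 lower, also with 7. The added genes were Tlr3 and Eif2ak2 in each, as they were with no filter on low counts. The correction for GC content and length called 8 of the 10. A block for the replicate number called 0 genes in either direction and 0 of the 10. The labels do not say whether the numbers pair the mice, and few degrees of freedom were left. Centred within each group, log2 CPM of same-numbered libraries correlated at −0.06, 0.079, 0.341, 0.124 and −0.223 for replicates 1 to 5. Of the 8 libraries, only replicates 2, 4 and 5 have a library in each group, so the blocked fold changes rest on those. On the log2 scale they were −1.47 for Ddx58, −1.57 for Ifih1, −3.24 for Dhx58, −1.82 for Tlr9 and −0.89 for Myd88. Leaving out 1 of the 8 libraries gave 131 to 1129 genes higher, 276 to 1281 lower and 4 to 8 of the 10, with the most without DMM replicate 4. Apart from the GC and length correction, the causes were not tested. Ddx58, Ifih1, Dhx58 and Tlr9 were called over 8 libraries in every setting but the block. The groups hold 4 or 5 mice, and 3 in a group where 1 of the 8 is left out. The interferon ligands, Trex1 and 6 marker genes (Cox6a2, Fcer2a, Blk, Mpo, Ly6g and Pvalb) had too few counts to be tested.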
